A study of Mus musculus with 6 samples.

Results

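The middle colon was compared with both ends of the colon, gene by gene, in mouse colon epithelial cells. A gene was taken as a member when its middle value lay above both the proximal and the distal value, or below both, in the male and in the female libraries alike. By this rule 1881 of 11815 kept genes (15.9%) were members, out of 24346 genes listed; 894 (7.57%) were above both ends and 987 (8.35%) were below both. The rule used the same 6 libraries that are described here, so which genes are members, and in which direction, is a description and not a test.

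The cells were isolated from 3 stretches of colon (proximal, middle, distal) of mice of the inbred C57BL/6J strain, wild type and without treatment. Each region had 1 male library and 1 female library, so n = 2 per region and 6 libraries in all. The labels do not give the age of the mice, the number of mice in a library, any pooling, or whether one mouse gave all 3 regions. The p-values below therefore measure only how far these libraries scatter, and that scatter may be technical, and a difference between bulk samples cannot tell fewer cells of a type from less RNA per cell.

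Expression was given as FPKM, a fragment count scaled to transcript length and library size, and a difference below is one of log2(FPKM + 1) unless a level in FPKM is named. The added 1 shrinks the differences of genes with low FPKM. Where 3 levels follow one another, their order is proximal, middle, distal. A gene was kept when it reached 1 FPKM in at least 2 libraries. The libraries summed to between 546269 and 612818 FPKM, listed 11170 to 11473 genes at 1 FPKM or more, and had an estimated depth of 7.82 to 9.91 M fragments. Epcam, an epithelial adhesion molecule, ranged from 743 to 872 FPKM, and the largest single marker of B and plasma cells, and of enteric neurons and glia, was at 0.803 and 0.807 FPKM. Other cell types had higher ones. The largest was at 135 FPKM for red blood cells, 37.9 for macrophages and dendritic cells and 35.3 for T cells and intraepithelial lymphocytes. For smooth muscle it was at 17.1, for fibroblasts at 5.12 and for endothelium at 2.22 FPKM. The part of such cells in the differences was not tested.

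The colon epithelium is made of absorptive colonocytes and of secretory cells, chiefly goblet cells, which secrete the gel-forming mucin and the proteins that pack and cross-link it into the mucus layer over the surface. Immediate early genes encode transcription factors and feedback regulators that are switched on within minutes of a growth factor or stress signal, without new protein synthesis. Ligands of the epidermal growth factor (EGF) receptor are among the signals that switch them on in epithelia.

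For most genes that differed between the ends, the middle lay between them. Among genes whose ends differed by at least 1 on the log2 scale, 1060 of 1230 (86.2%) had an intermediate middle value in the male libraries and 914 of 1024 (89.3%) in the female libraries. The median gene stood 59.2% of the way from proximal to distal in the male and 65.8% in the female middle library. Over the 11815 kept genes the male middle library correlated with the female middle library at a Pearson r of 0.975, about as closely as with the female proximal library (0.976). The female middle library correlated at 0.982 with the male distal and at 0.981 with the female distal library. These correlations are across genes, which are not independent replicates, and the libraries share the same gene set.

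The middle stood outside both ends much less often than either end stood outside the other regions. Proximal colon was the highest or the lowest region in both sexes for 5143 genes (43.5%) and distal colon for 4904 (41.5%), against 1881 (15.9%) for middle colon. For a further 1740 genes (14.7%) the middle was outside both ends in each sex but in opposite directions, above in one sex and below in the other. The opposite-direction counts for the proximal and distal regions were 1662 (14.1%) and 1265 (10.7%). The plot of region extremes shows how near the same-direction and opposite-direction counts lie for the middle.

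**Figure D1:**
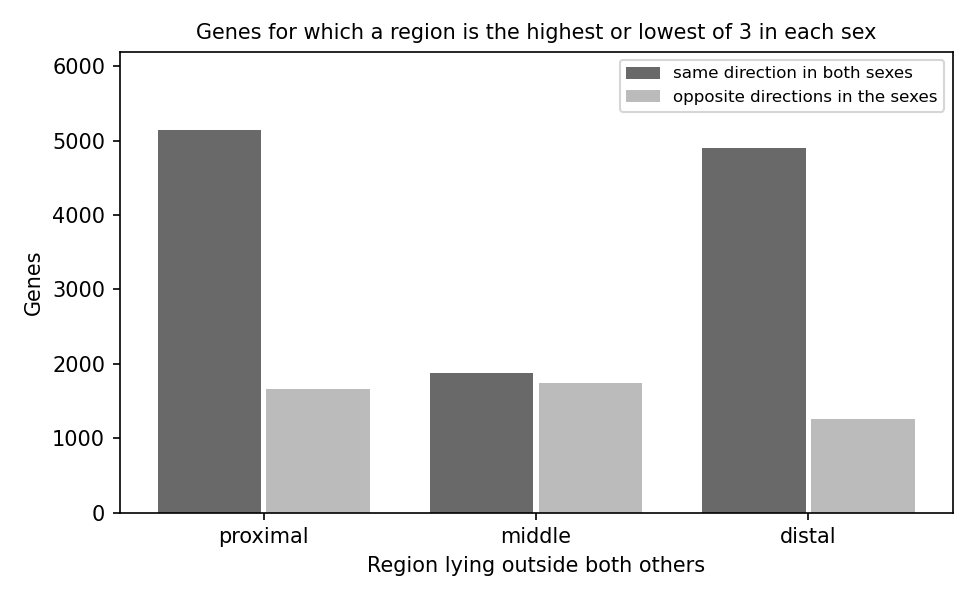
Number of kept genes (vertical axis) for which a region was the highest or the lowest of the 3 in each sex, by region (horizontal axis); dark bars count the same direction in both sexes and pale bars opposite directions. For the middle the bars reach 1881 and 1740 genes, for the proximal region 5143 and 1662, and for the distal region 4904 and 1265.

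Larger gaps of the middle were shared between the sexes more often than small ones, but less often than those of either end. The margin of a gene is the smallest of its 4 differences, middle minus proximal and middle minus distal in each sex. With a margin above 0.5 there were 51 genes with the same direction (0.432% of all kept genes), 25 above and 26 below, against 14 with opposite directions (0.118%). The matching counts were 798 and 19 for the proximal and 481 and 9 for the distal region. With a margin above 1 the counts for the middle were 11 (0.0931%) and 3 (0.0254%), the 11 being 4 above and 7 below. They were 258 and 2 for the proximal and 124 and 0 for the distal region. Most members had small margins, with medians of 0.0656 above and -0.0561 below. Members just inside the rule included Cstf2t and the glycolytic enzyme Tpi1 above, with margins of 0.00016 and 0.00026, and Kcmf1 and Gas5 below, at -0.00016 and -0.0002. Just outside were Tm2d2, at -0.00016 on the upper side, and Ciao1, at 0.00032 on the lower side.

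The middle minus the mean of both ends was tested over all kept genes with limma and Benjamini-Hochberg adjustment. The test called 2 of 11815 genes at an adjusted p under 0.05 (0.0169%), 1 higher and 1 lower (0.00846% each). At an unadjusted p under 0.05 it gave 816 genes (6.91%), 435 higher (3.68%) and 381 lower (3.22%). Against the proximal region alone 289 genes were called (2.45%), 141 higher (1.19%) and 148 lower (1.25%), and against the distal region alone 59 (0.499%), 46 higher (0.389%) and 13 lower (0.11%). Called against each end in the same direction were 4 genes (0.0339%), Snora21 and Rbp4 higher and Atf3 and Utp14b lower (0.0169% in each direction). These counts hung on single libraries: the count against the mean of the ends was 267 without the female proximal library (159 higher, 1.35%, and 108 lower, 0.914%), 40 without the male proximal library and 0 without either middle library, and the 4 genes called against each end became 50, 26 and 0 respectively, with 0 and 1 without the male and the female distal library. The calls against the proximal region also became 1 higher and 3 lower when no filter was applied, and 8 higher and 16 lower with sex left out of the model. Against the distal region they became 1 higher and 1 lower without a filter, and 11 higher and 6 lower without sex. The calls against each end became 1 higher and 0 lower in both of these settings. A single gene's call against either end, or against each end, thus rests on these choices.

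Snora21, a small nucleolar RNA that guides pseudouridylation of ribosomal RNA, was at 20.1 FPKM in the male middle and 16.0 FPKM in the female middle library and was listed at 0 in the 4 end libraries. It was the gene called higher in the middle, but it was kept only through the 2 middle libraries where it was high, so the call supports nothing beyond these levels. The entry is 137 bases long and lies at chr11:97781639-97781775 of mm10, in an intron of the ribosomal protein gene Rpl23 on the same strand. Rpl23 itself was at 601 and 915 FPKM in the middle libraries and at 635 to 915 FPKM at the ends. Small nucleolar RNA entries were often listed at 0: 14 of the 16 kept ones were at 0 in at least 1 library, compared with 191 of the 11799 other kept genes (1.62%). An FPKM of 0 for such a short entry can be a failed estimate, so no fold is given. In the other direction Snora24 was listed at 0 in both middle libraries and was at 3.12 to 40.8 FPKM at the ends.

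Hoxd13, a homeobox transcription factor of posterior identity at chr2:74668310-74671599, was the gene called lower, and it was not a member. It was kept only through the 2 distal libraries where it was high, and without a filter the call was lost (limma adjusted p = 0.17). Its FPKM was 0, 0 and 38.4 in the male libraries and 0.441, 0.621 and 59.7 in the female libraries. The middle and proximal libraries were thus all under 1 FPKM and the distal ones stood apart, so the call against the mean of the ends came from the distal value.

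Rbp4, the carrier of retinol in plasma, peaked in the middle. It was at 5.14, 10.4 and 3.32 FPKM in the male libraries and 4.45, 9.73 and 2.76 FPKM in the female libraries. Both middle libraries were above all 4 end libraries. The difference was 0.93 ± 0.12 (SE) against the proximal region (limma adjusted p = 0.032) and 1.45 ± 0.12 against the distal region (limma adjusted p = 0.026). Against the mean of the ends it was 1.19 ± 0.11, with a limma adjusted p of 0.079. The gene lies at chr19:38116629-38125281.

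Atf3, a stress-inducible basic leucine zipper transcription factor at chr1:191170296-191218039, dipped in the middle. Its level was 435, 201 and 593 FPKM in the male libraries and 614, 220 and 722 FPKM in the female libraries. The middle and end libraries did not overlap. Middle minus proximal was -1.29 ± 0.14 (SE, limma adjusted p = 0.026) and middle minus distal was -1.63 ± 0.14 (limma adjusted p = 0.025). Against the mean of the ends the value was -1.46 ± 0.12, with a limma adjusted p of 0.058. Utp14b, a factor of ribosomal RNA processing, followed the same pattern at 21.0, 8.66 and 23.9 FPKM in the male libraries and 17.4, 7.64 and 27.3 FPKM in the female libraries, with -1.14 against the proximal (limma adjusted p = 0.028) and -1.54 against the distal region (limma adjusted p = 0.026). Its exons overlap those of Acsl3 on the same strand, so reads of the 2 genes cannot be fully told apart. Acsl3 was at 56.4 and 66.2 FPKM in the middle and 64.9 to 84.7 FPKM at the ends.

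The share of members varied between functional lists. Of 24 kept immediate early genes 15 (62.5%) were below both ends and 0 above, against 8.35% of all kept genes below. Of 22 kept genes of a goblet cell mucus list 10 (45.5%) were above and 0 below, against 7.57% of all kept genes above. That list, whose genes are called mucus genes below, is wider than secreted mucus proteins. Its members above include the calpain Capn9, the disulfide isomerase Agr2 and the transmembrane mucin Muc1. The median middle-minus-ends difference was -0.30 in the male libraries and -0.36 in the female libraries for the immediate early list, and 0.54 and 0.66 for the mucus list, against -0.00 in each sex over all kept genes. At the other extreme, 0 of 44 ribosomal protein genes were members with the values as deposited. After quantile normalization, another scaling of the libraries, 4 of the 44 were below both ends and 0 above. These lists were drawn up with earlier results of these data known, so their counts are descriptions.

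**Figure D2:**
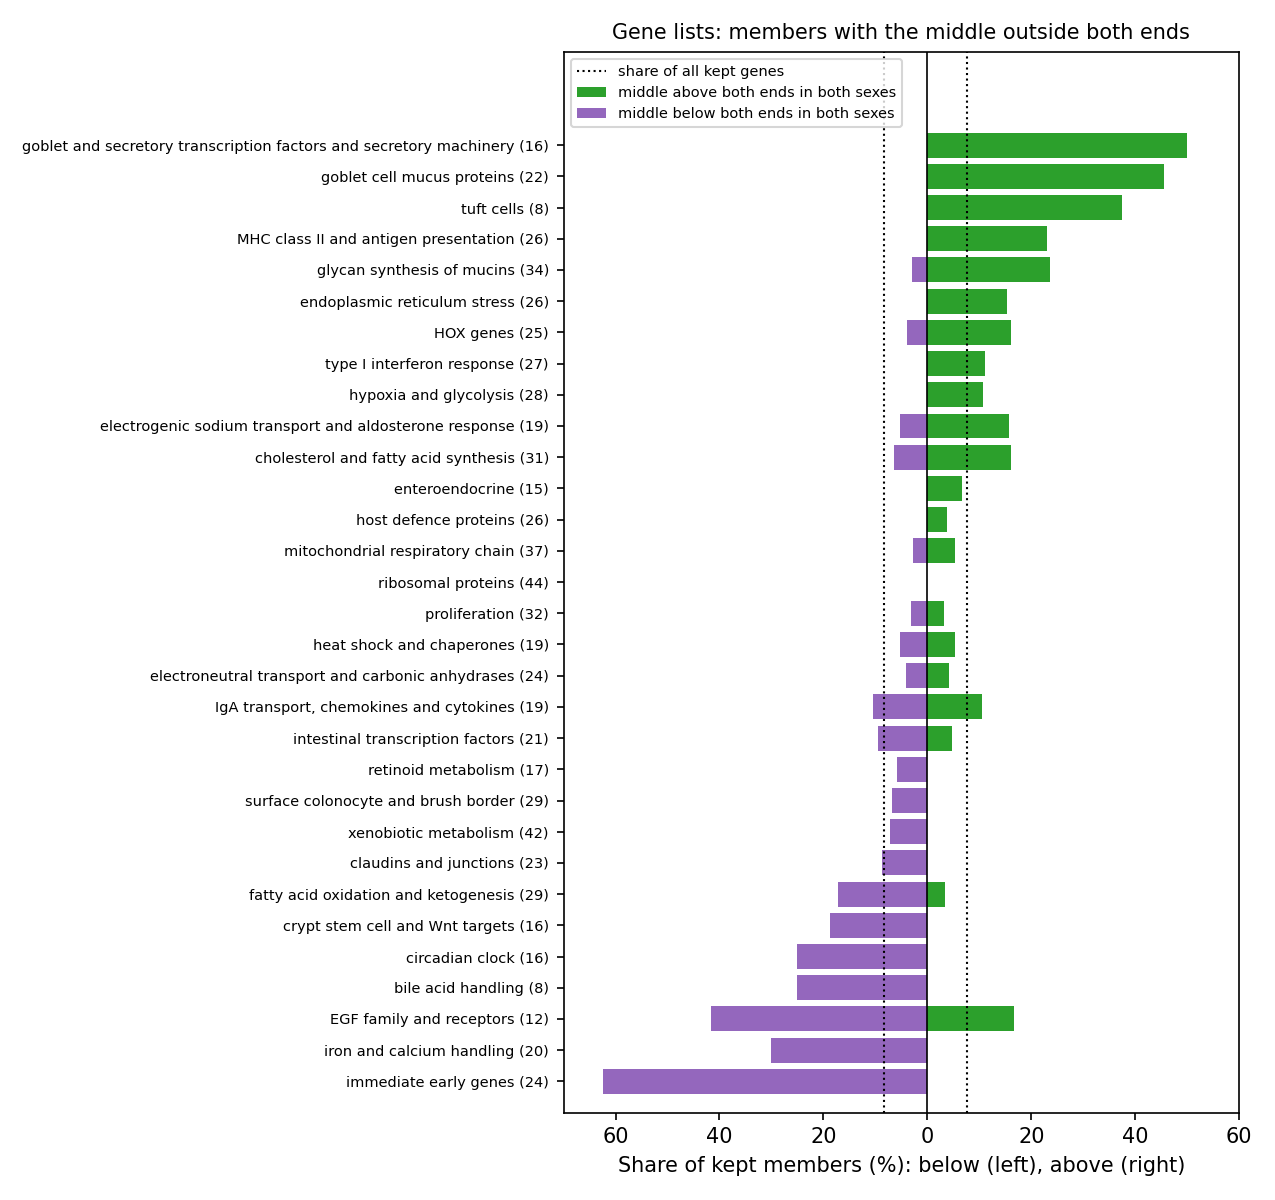
Share of the kept members of each gene list (number kept in parentheses) whose middle value was above (green, right) or below (purple, left) both ends in both sexes, in percent; dotted lines mark the shares of all kept genes. Secretory and mucus lists extend farthest to the right, at 50% and 45.5%, and immediate early genes farthest to the left, at 62.5%.

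Among the mucus genes the members above both ends were Fcgbp, Clca1, Zg16, Ang4, Agr2, Capn8, Capn9, Muc1, Sytl2 and Bcas1. In the test against the proximal region 6 of the 22 were called higher and 0 lower, next to 1.19% and 1.25% of all genes, and against the distal region 2 were called higher (0.389% of all genes). Against the mean of the ends limma called 0 of the 22, and 14 had an unadjusted p under 0.05, all higher (3.68% of all genes). The rule used the same values as these contrasts, against either end or their mean, so nothing is read from these counts.

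Fcgbp, a large mucus protein that is bound to the mucin network, was at 128, 551 and 295 FPKM in the male libraries and 219, 765 and 439 FPKM in the female libraries. Each middle library exceeded all 4 end libraries. The difference was 1.40 ± 0.11 (SE) against the mean of the ends (limma adjusted p = 0.058), 1.95 against the proximal region (limma adjusted p = 0.016) and 0.85 against the distal region (limma adjusted p = 0.078). The gene lies at chr7:28071236-28120862.

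Clca1, a secreted metalloprotease that processes mucin, was at 106, 686 and 444 FPKM in the male libraries and 440, 2008 and 731 FPKM in the female libraries. Within each sex the middle was highest, although the male middle library was lower than the female distal one. Clca1 rose by 2.43 against the proximal region (limma adjusted p = 0.029), and the difference from the distal region was 1.04 (limma adjusted p = 0.26). Zg16, a lectin that binds the cell walls of Gram-positive bacteria, was at 1025, 4286 and 3478 FPKM in the male libraries and 1803, 6676 and 3776 FPKM in the female libraries. It was called against the proximal region (limma adjusted p = 0.028) and not against the distal region (limma adjusted p = 0.43).

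Ang4, an antimicrobial ribonuclease of secretory cells, was highest in the middle in both sexes, at different levels. Its FPKM was 2.53, 19.4 and 3.35 in the male libraries and 54.4, 197 and 9.80 in the female libraries. The difference from the ends was 2.38 in the male libraries and 3.02 in the female libraries, with a fitted value of 2.70 ± 0.52 (SE) that did not pass (limma adjusted p = 0.37). Ang4 has close relatives in the angiogenin family, so its value is uncertain where reads could be shared. Capn9, a calpain protease of the gut, was at 6.86, 22.6 and 15.2 FPKM in the male libraries and 12, 31.4 and 17.3 FPKM in the female libraries, and it rose by 1.45 against the proximal region (limma adjusted p = 0.025).

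The other members of this list, named after their values were seen, were smaller. Agr2, a disulfide isomerase needed for mucin folding, was at 1504 and 1662 FPKM in the middle and 979 to 1288 FPKM at the ends. Bcas1 was at 34.6 and 49.0 FPKM in the middle and 19.5 to 34.7 FPKM at the ends, and was called against the proximal region (limma adjusted p = 0.03). The fitted differences were 0.47 for Agr2, 0.60 for Bcas1, 0.63 for Sytl2, 0.84 for the transmembrane mucin Muc1 and 0.35 for Capn8.

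The mucin itself was not a member. Muc2, which encodes the gel-forming mucin of the colon and was also picked out after its values were seen, was at 1607, 1980 and 323 FPKM in the male libraries and 1373, 997 and 275 FPKM in the female libraries. The middle was above both ends in the male and between them in the female. Muc2 was higher in the middle than in the distal region by 2.23 (limma adjusted p = 0.036). Tff3, the trefoil peptide that is secreted with mucin, was at 548, 963 and 1380 FPKM in the male libraries and 529, 2388 and 2033 FPKM in the female libraries, so its middle was the highest region in the female only.

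**Figure D3:**
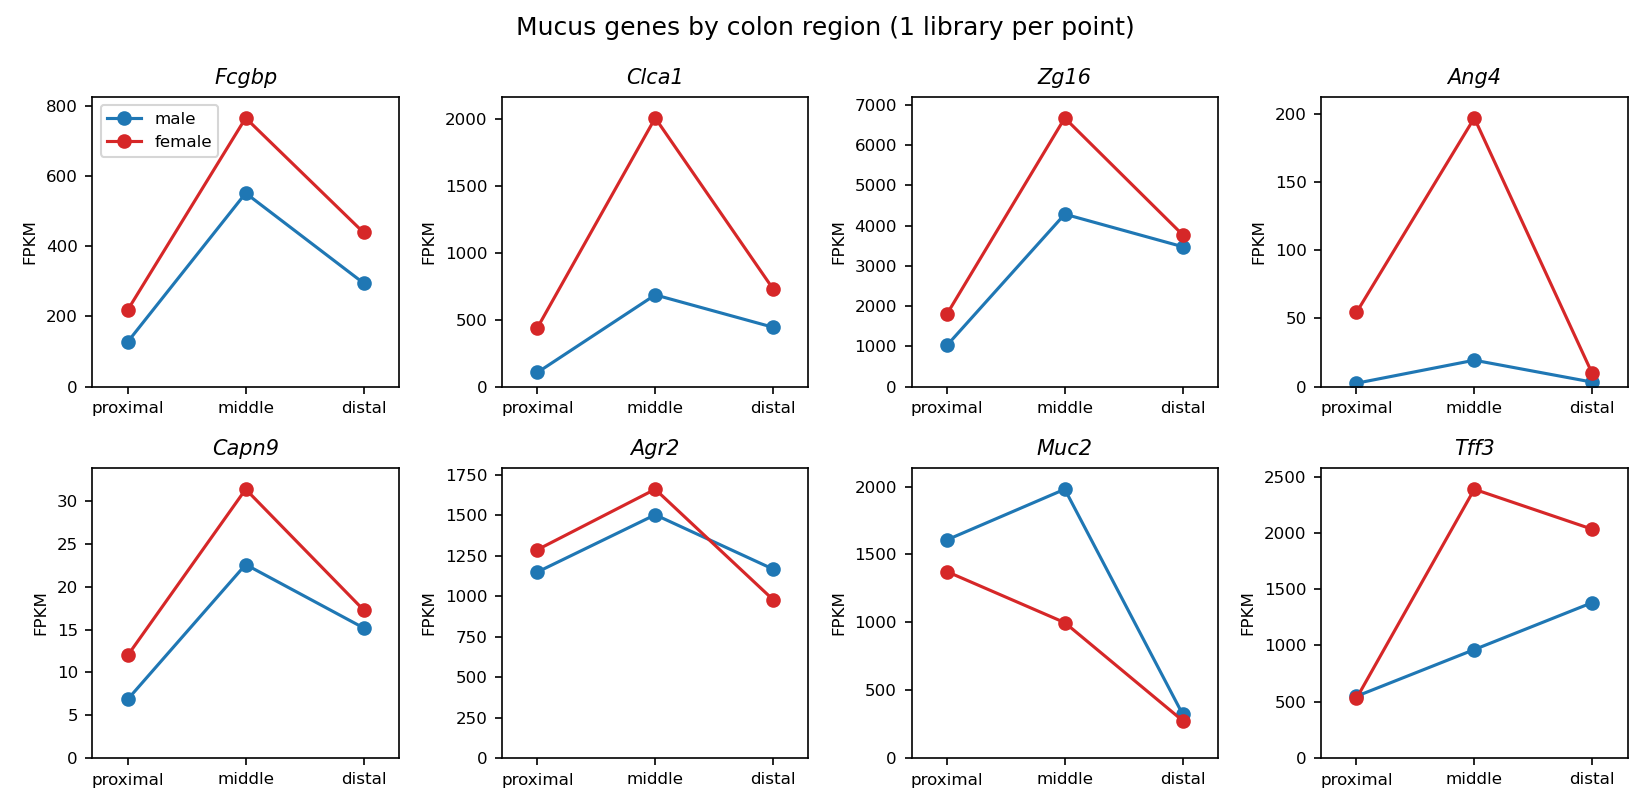
FPKM (vertical axes, linear and starting at 0) of 8 mucus genes in the proximal, middle and distal colon; each point is 1 library, blue male and red female, joined within a sex. Fcgbp, Clca1, Zg16, Ang4, Capn9 and Agr2 peak in the middle in both sexes, and Muc2 and Tff3 in 1 sex each.

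Members of the secretory machinery list had the same direction and smaller differences. Of 16 kept transcription factors and secretory machinery genes 8 were above both ends (50%) and 0 below, against 7.57% and 8.35% of all kept genes. Xbp1, a transcription factor of secretory cells, met the rule by a margin of only 0.006, at 88.1 and 91.9 FPKM in the middle and 84.2 to 91.5 FPKM at the ends (0.05 ± 0.08 SE, limma adjusted p = 0.97). Rab27a, a small GTPase of granule exocytosis, was at 9.64 and 11 FPKM in the middle and 5.11 to 6.88 FPKM at the ends, with a difference of 0.71 (limma adjusted p = 0.26) and a call against the proximal region (limma adjusted p = 0.034). Its model overlaps Gm27186 on the same strand. Creb3l4 was at 32.8 and 36.3 FPKM in the middle and 19.5 to 28.9 FPKM at the ends. Ern2, the endoplasmic reticulum stress sensor of goblet cells, was at 73.0 and 58.1 FPKM against 42.2 to 50.4 FPKM, and the disulfide isomerase Pdia5 at 45.5 and 48.1 FPKM against 26.9 to 36.9 FPKM. For Rab27a, Creb3l4, Ern2 and Pdia5 both middle libraries were above all end libraries, which the rule already requires within each sex.

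Enzymes that build mucin glycans had 8 members above and 1 below among 34 kept genes (23.5% and 2.94%), against 7.57% and 8.35% of all kept genes. Against the proximal region 3 of the 34 were called higher and 1 lower (1.19% and 1.25% of all genes), and against the distal region 3 were called higher (0.389% of all genes). Here too the rule used the values of these contrasts, so nothing is read from these counts. Chst4, a sulfotransferase of N-acetylglucosamine, was at 19.1, 44.0 and 25.1 FPKM in the male libraries and 29.7, 44.4 and 23.5 FPKM in the female libraries, a difference of 0.85 (limma adjusted p = 0.36). The sialyltransferase St3gal4 was at 68.5, 340 and 281 FPKM in the male libraries and 237, 342 and 272 FPKM in the female libraries, so the male proximal library stood apart from the other 5. St6gal1, another sialyltransferase, was at 25.1 and 27.5 FPKM in the middle and 9.16 to 21.2 FPKM at the ends, and it was called against the proximal region (limma adjusted p = 0.026).

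Of the 15 immediate early genes below both ends, Fos, Fosb, Fosl1 and Jun encode subunits of the AP-1 transcription factor, Egr1, Egr2, Nr4a1 and Nr4a2 encode other transcription factors, and Zfp36, Dusp1 and Btg2 encode feedback regulators. Atf3, Maff, Ier2 and Csrnp1 complete the group. Of the 24 kept genes 0 were outside both ends in opposite directions in the sexes. Against the proximal region 4 were called lower and 0 higher, next to 1.25% of all genes called lower, and against the distal region 2 were called lower (0.11% of all genes). Against the mean of the ends limma called 0 of the 24, and 14 had an unadjusted p under 0.05, all lower (3.22% of all genes). The rule again used the same values as these contrasts, so nothing is read from these counts.

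Serum response factor, CREB and AP-1 are known regulators of immediate early genes, and 5 promoters are shown for the letters of the motifs that these factors bind. In the 250 bases before the start, a CArG box, the element bound by serum response factor, was found in 2 of the 12 members with a promoter entry (16.7%; Egr2 and Zfp36) and in 439 of all 27025 genes (1.62%). TGACGTCA, the full cyclic AMP response element, was found in 3 of the 12 (25%; Btg2, Dusp1 and Maff) and in 478 of all genes (1.77%). TGANTCA, the AP-1 element, was found in 1 of the 12 (8.33%; Csrnp1) and in 2113 of all genes (7.82%). Both strands were searched, and no motif contains another. Below are the 100 bases before a start, 5′ to 3′ on the gene's strand, from RefSeq for GRCm38.p6, with CArG boxes in capitals for Egr2 (chr10:67537769-67537868, plus strand), Zfp36 (chr7:28379229-28379328, minus strand) and Dusp5 (chr19:53529045-53529144, plus strand), and TGACGTCA in capitals for Areg (chr5:91139499-91139598, plus strand) and Errfi1 (chr4:150854970-150855069, plus strand). Dusp5, Areg and Errfi1 are members outside the immediate early list, and these 5 were chosen because they hold a motif. A match of letters is a description and not a site of binding in these cells.
Egr2: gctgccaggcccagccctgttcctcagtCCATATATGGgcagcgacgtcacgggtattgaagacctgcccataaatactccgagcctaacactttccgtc
Zfp36: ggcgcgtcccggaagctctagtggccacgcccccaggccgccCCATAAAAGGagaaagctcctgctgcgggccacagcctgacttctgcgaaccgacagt
Dusp5: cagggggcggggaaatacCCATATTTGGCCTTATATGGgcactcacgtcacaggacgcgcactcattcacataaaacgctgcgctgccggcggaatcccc
Areg: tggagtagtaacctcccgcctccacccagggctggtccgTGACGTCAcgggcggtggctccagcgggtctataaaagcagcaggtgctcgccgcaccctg
Errfi1: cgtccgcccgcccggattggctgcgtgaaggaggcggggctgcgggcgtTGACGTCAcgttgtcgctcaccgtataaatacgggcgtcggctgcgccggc
The Egr2 box shown begins 72 bases and the Zfp36 box 58 bases before the start, and Dusp5 carries a pair of adjoining boxes. Egr2 has other annotated starts, and the bases before one of them (chr10:67537466-67537565) hold a different CArG box. The Areg and Errfi1 elements begin 61 and 51 bases before the start.

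Egr2, a zinc finger transcription factor, was at 69.4, 21.0 and 32.5 FPKM in the male libraries and 59.0, 9.08 and 19.5 FPKM in the female libraries. Within each sex the middle was lowest, although the male middle library was slightly above the female distal one. The difference was -1.47 ± 0.18 (SE) against the mean of the ends (limma adjusted p = 0.24), and Egr2 fell by 2.12 against the proximal region (limma adjusted p = 0.025).

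Fosb was at 222, 131 and 247 FPKM in the male libraries and 275, 104 and 260 FPKM in the female libraries, with both middle libraries below all 4 end libraries. It was called lower than in the proximal region (limma adjusted p = 0.047) and not than in the distal region (limma adjusted p = 0.081). Fosl1 was lower in level, at 6.89, 1.25 and 2.88 FPKM in the male libraries and 7.37, 0.471 and 1.88 FPKM in the female libraries, and was called against the proximal region (limma adjusted p = 0.025); its exons overlap a gene on the other strand. Maff, a small Maf factor, was at 26.5 and 19.2 FPKM in the middle and 38.1 to 55.5 FPKM at the ends.

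Nr4a1, an orphan nuclear receptor, was lowest in the middle and highest in the distal region, at 57.0, 43.2 and 143 FPKM in the male libraries and 63.1, 51.1 and 164 FPKM in the female libraries. It fell by 1.68 against the distal region (limma adjusted p = 0.012), and against the proximal region it did not pass (limma adjusted p = 0.13). The abundant members differed less: Fos was at 954 and 900 FPKM in the middle and 1076 to 1318 FPKM at the ends, and Zfp36, which encodes an RNA-binding protein that destabilises cytokine transcripts, was at 467 and 411 FPKM against 510 to 643 FPKM. Dusp1, a phosphatase of MAP kinases, was at 261 and 265 FPKM against 294 to 382 FPKM. Their fitted differences were -0.37, -0.43 and -0.36. Nr4a1, Fos, Zfp36 and Dusp1 were named after their values were seen, as were 2 listed genes outside the rule, Junb and Cyr61. Junb was at 242 and 243 FPKM in the middle, between 218 to 226 in the proximal and 329 to 348 in the distal libraries, and Cyr61 was highest in the proximal region, at 93.2 and 126 FPKM.

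The EGF receptor ligands Hbegf and Areg were among the members with large margins below both ends, while the ligand Egf was above both. Among 12 kept genes of the EGF family and its receptors, 5 were below both ends (41.7%), 2 above (16.7%) and 5 neither. Of all kept genes 8.35% were below and 7.57% above. The 2 above were Egf and Adam17. Egf was low in level, at 2.26 and 3.16 FPKM in the middle and 1.93 to 2.12 FPKM at the ends. Hbegf, a heparin-binding ligand, was at 131, 70.8 and 159 FPKM in the male libraries and 169, 48.6 and 174 FPKM in the female libraries, with a difference of -1.41 ± 0.19 (SE, limma adjusted p = 0.24). Areg, the ligand amphiregulin, was at 159, 88.5 and 208 FPKM in the male libraries and 236, 56.1 and 155 FPKM in the female libraries, with a difference of -1.39 ± 0.25 (limma adjusted p = 0.35). For both ligands the middle libraries were below all end libraries. Errfi1, a feedback inhibitor of the receptor, was at 78.1 and 47.2 FPKM in the middle and 101 to 162 FPKM at the ends. The receptor gene Erbb2 differed less, at 64.3 and 55.2 FPKM against 66.3 to 81.1 FPKM. The list had 0 calls in either direction against the proximal region, and its median difference was -0.05 in the male libraries and -0.14 in the female libraries.

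**Figure D4:**
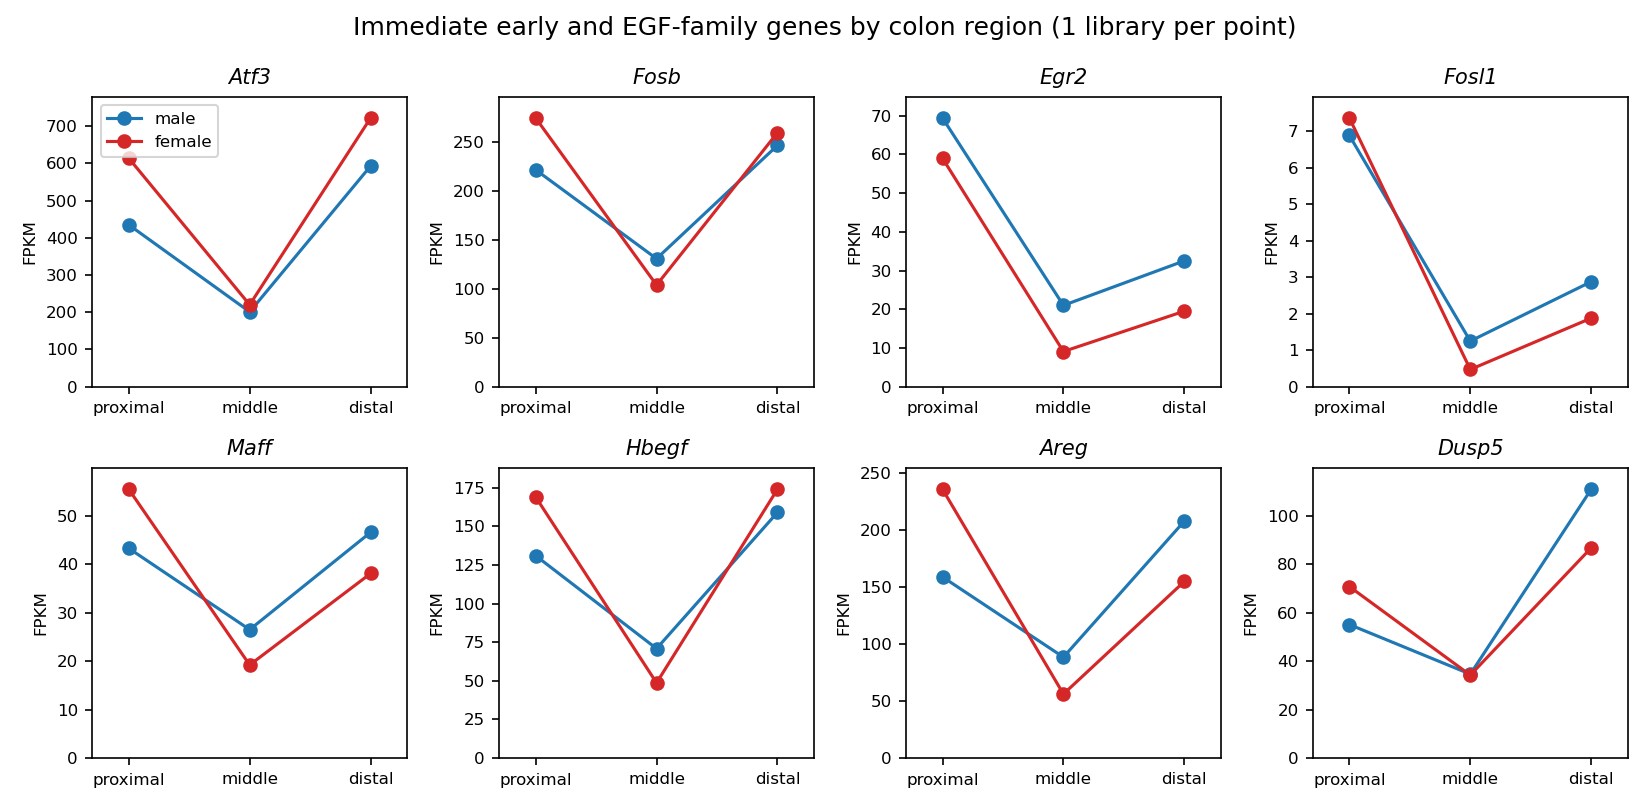
FPKM (vertical axes, linear and starting at 0) of 8 immediate early, EGF-family and related genes in the proximal, middle and distal colon; each point is 1 library, blue male and red female, joined within a sex. All 8 genes are lowest in the middle in both sexes, Atf3 at 201 and 220 FPKM and Hbegf at 70.8 and 48.6 FPKM.

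Other members below both ends with large margins included signalling genes. Dusp5, a nuclear phosphatase of the kinase ERK, was at 55.1, 34.6 and 111 FPKM in the male libraries and 70.8, 34.2 and 86.8 FPKM in the female libraries and was lower than in the distal region (limma adjusted p = 0.048). Thbs1, the matrix protein thrombospondin 1, was at 79.2, 37.0 and 59.6 FPKM in the male libraries and 98.9, 27.1 and 70.3 FPKM in the female libraries and was lower than in the proximal region (limma adjusted p = 0.033). Both middle libraries were below all 4 end libraries for both genes. Each has exons that overlap a gene on the other strand, and the authors' treatment of strand is not stated in the sources.

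Of 20 kept iron and calcium handling genes 6 were below both ends (30%) and 0 above, against 8.35% and 7.57% of all kept genes. S100g, the calcium-binding protein calbindin-D9k of absorptive cells, was at 162, 3.16 and 9.14 FPKM in the male libraries and 80.8, 6.55 and 39.1 FPKM in the female libraries. It fell by 4.36 against the proximal region (limma adjusted p = 0.04), while the difference from the mean of the ends was -3.11 ± 0.56 (SE, limma adjusted p = 0.35). Fth1, the ferritin heavy chain that stores iron, was at 1506 and 1724 FPKM in the middle and 1743 to 4088 FPKM at the ends, the highest value being that of the male proximal library. Mt1, a metallothionein, was at 377 and 549 FPKM in the middle and 582 to 740 FPKM at the ends. The male proximal library also stood apart in markers of T cells and intraepithelial lymphocytes, which summed to 113, 15 and 14.6 FPKM in the male libraries and 48.7, 26.8 and 20.1 FPKM in the female libraries. The part of these cells in the differences was not tested. Of the 12 kept genes of that list 1 was a member below (8.33%, next to 8.35% of all kept genes). It was the chemokine Ccl5, at 4.97 and 8.30 FPKM in the middle and 7.73 to 35.3 FPKM at the ends.

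Circadian clock genes had 4 of 16 members below (25%) and 0 above, and fatty acid oxidation genes 5 of 29 below (17.2%) and 1 above (3.45%). Over all kept genes the shares were 8.35% below and 7.57% above. Nfil3, a repressor of the clock, was at 1.97 and 1.36 FPKM in the middle and 2.27 to 5.30 FPKM at the ends, and Cpt1a, which admits fatty acids to mitochondria, at 149 and 134 FPKM against 152 to 194 FPKM. Neither passed against the mean of the ends (limma adjusted p = 0.44 and 0.76).

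Among members above both ends were 2 peptide hormones of enteroendocrine cells. Ppy, pancreatic polypeptide, was at 1.79, 11.3 and 5.03 FPKM in the male libraries and 2.41, 26.2 and 3.26 FPKM in the female libraries. It rose by 2.57 against the proximal region (limma adjusted p = 0.038) and its difference from the mean of the ends was 2.21 ± 0.32 (SE, limma adjusted p = 0.25). Pyy, peptide YY, was at 31.1, 79.1 and 78.3 FPKM in the male libraries and 53.1, 176 and 115 FPKM in the female libraries, so the male middle and distal values were nearly the same, and it was called against the proximal region (limma adjusted p = 0.025). The enteroendocrine list, which does not hold Ppy, had 1 member above among 15 kept genes (6.67%), namely Pyy. Over all kept genes the share was 7.57%.

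Aqp4, a water channel of the basolateral membrane, had a large and uneven peak. It was at 10.2, 213 and 73.9 FPKM in the male libraries and 77.6, 153 and 36.4 FPKM in the female libraries. The difference from the ends was 2.2 ± 0.77 (SE, limma adjusted p = 0.65). Cd177, a surface glycoprotein, was at 29.0, 86.0 and 37.6 FPKM in the male libraries and 56.4, 80.3 and 29.9 FPKM in the female libraries. Apoc2, a cofactor of lipoprotein lipase, was at 15.2 and 14.1 FPKM in the middle and 3.61 to 9.73 FPKM at the ends and was called against the proximal region (limma adjusted p = 0.028), and its model overlaps Gm44805 on the same strand. For these 3 genes both middle libraries exceeded all end libraries.

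Of 25 kept HOX genes, positional transcription factors of the body axis, 4 were above both ends (16%), all in the Hoxa cluster, and 1, Hoxd8, was below (4%). Of all kept genes 7.57% were above and 8.35% below. Hoxa13 was at 0.674, 19.0 and 18.9 FPKM in the male libraries and 11.4, 19.6 and 16.5 FPKM in the female libraries, and Hoxa10 at 2.42, 23.2 and 18.8 FPKM in the male libraries and 17.7, 24.5 and 19.4 FPKM in the female libraries. Hoxa5 was at 1.42, 11.9 and 8.19 FPKM in the male libraries and 6.14, 9.37 and 6.07 FPKM in the female libraries. In each the male proximal library was far below the other 5. The middle and distal values were close for Hoxa13 and farther apart for Hoxa5, whose middle minus distal difference was 0.52 ± 0.49 (SE, limma adjusted p = 0.75). Hoxa5 lies inside the annotated extent of Hoxa3.

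Tuft cell genes, of a chemosensory epithelial type, had 3 of 8 members above (37.5%), and genes of MHC class II and antigen presentation 6 of 26 (23.1%), with 0 below in both lists. Over all kept genes 7.57% were above and 8.35% below. Alox5ap, needed to make leukotrienes, was at 0.842, 3.91 and 0.626 FPKM in the male libraries and 1.81, 2.37 and 0.815 FPKM in the female libraries. Cd74, the invariant chain, was at 5.10, 12.7 and 3.49 FPKM in the male libraries and 5.94, 9.29 and 7.45 FPKM in the female libraries, and H2-Aa, a class II chain, at 3.92 and 5.37 FPKM in the middle and 1.47 to 3.60 FPKM at the ends. Markers of macrophages and dendritic cells, which also express class II genes, summed to between 21.9 and 43.2 FPKM in the 6 libraries. Only 2 of the 12 markers were kept. Most of the sum was Cd14, at 12.3, 23.3 and 37.9 FPKM in the male libraries and 20.7, 33.9 and 37.8 FPKM in the female libraries. The other kept marker, Cd68, was at 0.733 to 2.27 FPKM. The part of these cells in the class II values was not tested.

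The male and female differences are set against each other in the plot of all kept genes. Mucus genes lay mostly in the upper right and immediate early genes in the lower left, while ribosomal protein genes lay across the axes: 36 of 44 were outside both ends in opposite directions, 40 being below both ends in the male and 39 above both in the female libraries. A test of the difference between the sexes in middle minus the mean of the ends, added after the data were seen, called 0 of 11815 genes (limma, 1 residual degree of freedom, lowest adjusted p = 0.068), with 301 higher in the female (2.55%) and 187 lower (1.58%) at an unadjusted p under 0.05. Of the 44 ribosomal protein genes 0 were called by limma and 3 had an unadjusted p under 0.05, all higher in the female. The sexes are represented by 1 library per region, so a difference between the sexes cannot be told apart from one between libraries. The Y-linked genes Ddx3y, Eif2s3y and Kdm5d were at 0.0912, 0.258 and 0.173 FPKM in the female middle library. They were at 0 in the female proximal and distal libraries and at 7.9 to 39.1 FPKM in the male libraries. The source of these reads was not tested.

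**Figure D5:**
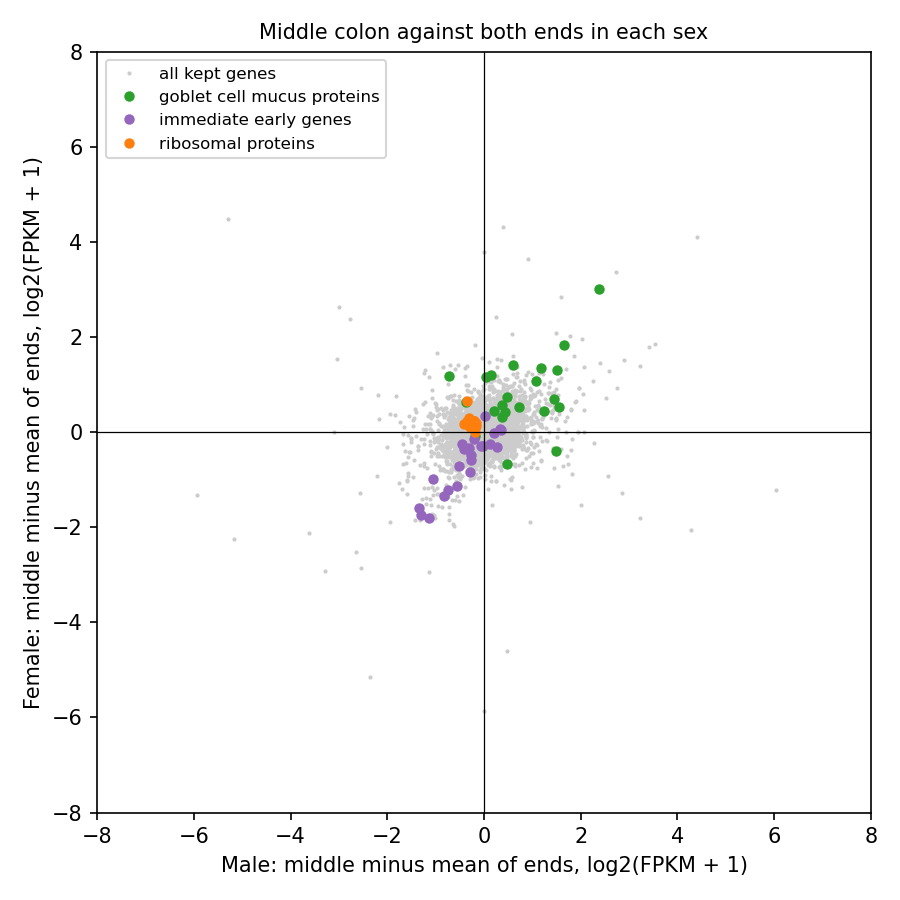
Middle minus the mean of both ends, as a difference of log2(FPKM + 1), in the male (horizontal axis) and female libraries (vertical axis); each grey point is 1 of 11815 kept genes, and 3 gene lists are coloured. Mucus genes (medians 0.54 male and 0.66 female) and immediate early genes (-0.30 and -0.36) lie toward opposite corners, and ribosomal protein genes (-0.24 and 0.17) toward the upper left.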

How the data were processed

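Gene-level FPKM values, as the authors deposited them, were used without rescaling. The submitters' processing notes name Cuffdiff 2.2.1, TopHat2 2.1.1, SAMtools 0.1.18 and Bowtie2 2.2.8, with mm10 as the build; their settings, gene annotation and strand handling were not given in the sources used here. Libraries were stranded mRNA libraries, per the labels' protocols. The spacing of low FPKM values gave the depth, with an assumed fragment length of 200 bases. Genes at 1 FPKM or more in at least 2 libraries (11815 of 24346) were fitted with limma 3.58.1 in R 4.3.3 on log2(FPKM + 1), with region and sex as terms and a variance trend, leaving 2 residual degrees of freedom. Because sex is a term, the libraries of a sex are matched across regions, as the labels give the sexes; deviations of the same sex correlated at 0.18, 0.13 and 0.35 between regions. P-values were adjusted by Benjamini-Hochberg over all kept genes. On simulated data (20 draws, 200 changed genes) the test of the middle against both ends recovered 90.4% of changes of 1 on the log2 scale. It recovered 99.3% of changes of 2, and 8.62% of calls were false, a larger share than the adjusted p threshold. In the measured libraries 29 members above and 28 below differed from the mean of the ends by at least 1 in size. Among all members, 1 above and 0 below passed. The simulated recovery is therefore not taken to hold for these libraries, and a gene that was not called may still differ by 1.

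The members and lists were chosen with earlier results of these data known. Genes with a mean of at least 5 FPKM were named by rule: the 15 largest margins and up to 8 largest called differences each way, genes called against both ends and, with no minimum level, up to 4 per list; others are said to be named after their values were seen. Alternatives were another pseudocount, filter, scaling, variance trend, a model without sex, and each library left out. Coordinates are from GENCODE M21. Python 3.11.15 and matplotlib 3.10.9 drew the figures.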

Additional observations from a re-analysis of the deposited data

Results flagged for a closer look

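The median middle-minus-ends difference had opposite signs in the male and female libraries for 6 lists, each by at least 0.1 on the log2 scale. The medians were -0.24 in the male and 0.17 in the female libraries for ribosomal proteins, 0.30 and -0.10 for surface colonocyte and brush border genes, 0.18 and -0.19 for proliferation, and 0.17 and -0.15 for cholesterol and fatty acid synthesis. For enteroendocrine genes they were -0.20 and 0.21, and for the epithelial cell markers 0.10 and -0.15. The differences between these medians were not tested. Gene by gene, limma with 1 residual degree of freedom called 0 genes of these lists for a difference between the sexes. At an unadjusted p under 0.05 it gave 3 ribosomal protein genes (all higher in the female), 1 surface colonocyte gene higher and 5 lower, and 1 cholesterol synthesis gene lower, with 0 in the other 3 lists, next to 2.55% higher and 1.58% lower over all kept genes. After quantile normalization the ribosomal protein medians were -0.10 and 0.04.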

How the results depend on the processing

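The 2 calls of the middle against the mean of both ends became 0 with a pseudocount of 0.1 and 0 with a minimum of 5 FPKM. They became 1 without a filter and 1 with no replicate block, that is, with sex left out of the model so that the libraries of a sex were not paired. The 4 calls against each end became 1 without a filter and 1 with no replicate block. Leaving out each library in turn gave 0 to 267 calls against the mean of the ends and 0 to 50 against each end. The 267 and 50 came without the female proximal library, and 40 and 26 without the male proximal library; without either middle library the first count was 0. With a library left out 1 residual degree of freedom remains and the lone library of its region is assumed to vary like the others. The calls against the proximal region, 141 higher and 148 lower, became 1 and 3 without a filter, 76 and 111 without the variance trend, 8 and 16 with no replicate block, 19 and 20 without the male middle, 0 and 0 without the female middle, and 436 and 370 without the female proximal library. Against the distal region, 46 and 13 became 1 and 1 without a filter, 19 and 10 without the variance trend, 11 and 6 with no replicate block, and 0 and 0 without the male distal, 5 and 2 without the female distal, 0 and 1 without the male middle, 23 and 13 without the female middle, 263 and 143 without the male proximal, and 261 and 145 without the female proximal library. Members above ranged from 1285 to 3065 and members below from 1390 to 3169 when a library was left out, since fewer differences are then required. Mucus genes above both ends numbered 10 to 15 and immediate early genes below both ends 14 to 17 over the alternatives run. With all 6 libraries, 0 of 22 mucus genes and 0 of 24 immediate early genes were called against the mean of the ends. Calls within these lists after a library is left out are not read, since the rule used the same values. Snora21 and Hoxd13 lost their calls with a pseudocount of 0.1 (limma adjusted p = 0.11 and 0.27) and with a minimum of 5 FPKM (0.057 for both); Hoxd13 also did so without a filter (0.17) and without sex in the model (0.2). Snora21 lost its call without either middle library, and Hoxd13 without any 1 of the middle or distal libraries. Rpl23, at -0.07, ranged from -0.30 to 0.16 with a library left out (0.16 without the male middle and 0.01 without the male distal library). Of the 528 other alternatives for 76 named genes 522 kept direction and side of the threshold; of 456 with a library left out 384 did so, 64 came to pass it, 6 no longer passed and 2 reversed. The threshold in this tally is the one against the mean of both ends, which only 2 genes passed. The other named genes thus had no call to lose, and the tally says little about how stable they are. Calls against the proximal or the distal region alone are not in it. Beyond the changes shown here, the cause was not tested. At this depth, genes under about 1 FPKM and short entries are least precise.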
